A study of Homo sapiens with 4 samples.

Results

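The mRNAs of 48 DNA repair genes were followed in RNA pulled down with the m6A demethylase ALKBH5. The genes were taken by symbol from a list of repair factors. The selection rule used no measured value, but the list was drawn up with earlier results of these data known. All 48 were found among the 26830 gene symbols measured. RNA was sequenced from NOMO-1, an established human acute myeloid leukaemia cell line, after crosslinking with UV light and immunoprecipitation of the tagged protein (RIP-seq). There were 4 libraries from cells that all carried a lentivirus for the 3xFlag-tagged ALKBH5 coding sequence, selected with puromycin and sorted for GFP: 2 of input RNA, named input 1 and input 3, and 2 recovered with the anti-Flag antibody, named Flag-IP 1 and Flag-IP 3. An anti-Flag pull-down from untagged cells is not analysed here, so the background of the antibody was not measured, and input shows cells that overexpress ALKBH5. The labels do not say whether the 2 libraries of each kind stem from independent cultures. The p-values therefore reflect variation among these libraries alone, which may be technical.

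DNA repair is divided among pathways that deal with different lesions. Damaged bases and single-strand breaks are handled by base excision repair, bulky lesions by nucleotide excision repair and replication errors by mismatch repair. Double-strand breaks are rejoined by homologous recombination, which copies a sister chromatid, or by end joining, and the Fanconi anaemia pathway unhooks crosslinks between the strands. Kinases and chromatin-bound mediators signal the damage to the cell cycle. ALKBH5 is an eraser of N6-methyladenosine (m6A), a mark of mRNA that is written mostly within short motifs such as GGACU, and leukaemia cells have been reported to depend on it.

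Levels were given in TPM, which corrects for transcript length and sums to 1000000 in each library. Structural RNAs such as ribosomal RNA took 96.8% and 96.4% of the input libraries and 92.5% and 93.6% of Flag-IP. Of all tested genes, 93.1% had more TPM in both Flag-IP libraries than in either input. How much of this came from the smaller share of structural RNAs was not tested. The difference between Flag-IP and input was therefore taken relative to the typical gene, after dividing each library by the median ratio of its tested genes. On log2(TPM + 1) as deposited the median gene was 0.84 higher in Flag-IP, and on the relative scale it was at -0.01. The sequencing depth behind a TPM value is unknown. Of 11 monocytic and myeloid markers 6, among them the granule protease gene CTSG, the transcription factor SPI1 and CD33, were at 1 TPM or more in every library. CD14 was listed at 0 in all 4, and MPO, CSF1R and ITGAM stayed under 1 TPM. The summed myeloid markers ran from 59.0 to 70.8 TPM in input and from 98.3 to 108 TPM in Flag-IP. No T cell, B cell, erythroid, epithelial or fibroblast marker exceeded 0.2 TPM. The single COL1A1, a fibroblast collagen, was at 0.02 and 0.04 TPM in input and at 0.07 and 0.13 TPM in Flag-IP, and its part in the results was not tested. ALKBH5 itself was at 4.62 and 4.91 TPM in input 1 and 3 and at 10.1 and 8.91 TPM in Flag-IP 1 and 3. Relative to the typical gene its log2 difference was -0.24 (limma adjusted p = 0.12).

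Repair mRNAs were scarce in these libraries. Their summed level was 80.6 TPM in input 1 and 92.0 TPM in input 3, against 276 TPM in Flag-IP 1 and 211 TPM in Flag-IP 3. XRCC6, PARP1, APEX1 and DDB1 had the highest input means, from 12.0 TPM for XRCC6 down to 7.46 TPM for DDB1. LIG4, at 0.12 and 0.07 TPM, had the lowest. For 47 of the 48 genes the lower Flag-IP library exceeded the higher input as deposited, where this held for 93.1% of all tested genes, and the exception was XPA. The ratio of the mean TPM in Flag-IP to that in input ran from 1.31 (XPA) to 8.28 (REV3L), with a median of 3.36, beside 2.38 over all tested genes. As deposited, Flag-IP 1 lay above Flag-IP 3 for 46 of the 48 genes, and on the relative scale for 33. For the 38 tested repair genes these counts were 36 and 25, and for all 6487 tested genes 5478 and 3008.

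**Figure D1:**
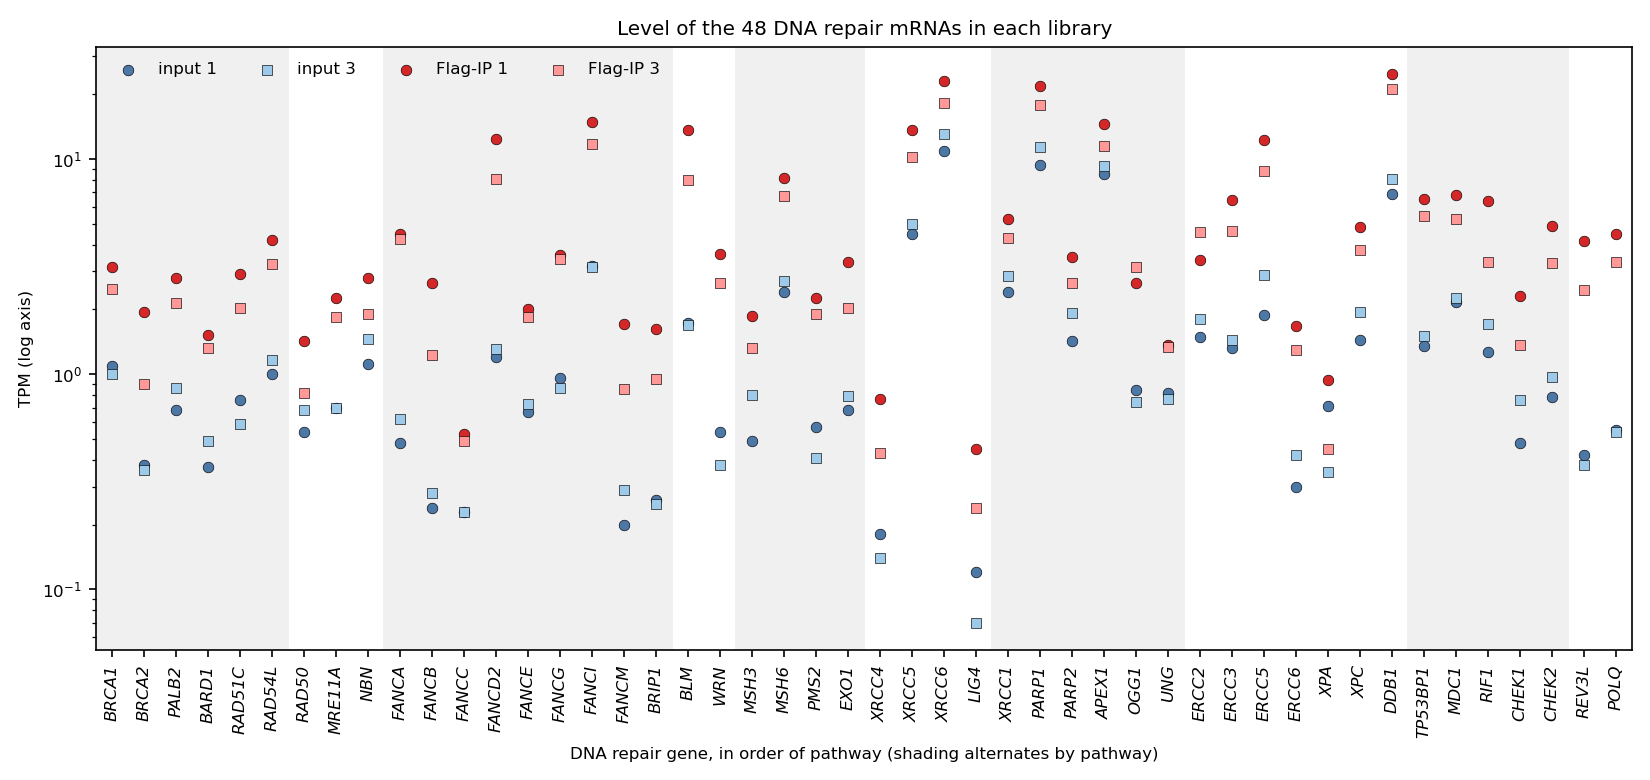
TPM (log axis) of each of the 48 repair genes in the 2 input and 2 Flag-IP libraries, 1 symbol per library, genes in order of pathway with alternating shading. Flag-IP lies above input for all genes but XPA, where the libraries interleave, and the gap is widest for genes such as REV3L, FANCD2 and FANCA.

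The comparison of pull-down with input asks which repair transcripts are bound by ALKBH5. Relative to the typical gene, 16 of the 38 repair genes that averaged 1 TPM or more were higher in Flag-IP and 4 were lower, and 18 did not pass (limma on log2(TPM + 1), Benjamini-Hochberg adjusted over 6487 genes, p below 0.05). Of all tested genes 22.3% were higher and 18.6% lower. The median difference was 0.30 for the 38 genes and -0.01 for all genes. The genes that were higher belong mainly to the Fanconi anaemia pathway, the RecQ helicases, the large repair polymerases, nucleotide excision repair and checkpoint signalling. The 4 lower genes, APEX1, XRCC6, XRCC1 and PARP1, act in base excision repair, single-strand break repair and end joining. As deposited all 38 were higher and none lower at the same threshold in limma, where 86.6% of all genes were higher and 0.74% lower, so the 4 lower genes had more TPM in Flag-IP than in input, but by less than the typical gene.

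The filter kept 17 genes whose input mean was under 1 TPM through their level in Flag-IP, and 8 of the 16 higher genes were among them. For that reason the count over the 38 genes alone is not evidence about the list. With genes chosen on their input mean alone, an alternative added after seeing the data, 9 of 21 repair genes were higher and 1 lower, where 18.3% and 15.1% of 4299 genes were. Without any filter 11 of the 48 were higher and 2 lower, where 8.86% and 5.45% of 15678 genes were. When the scaling omitted structural RNAs, 21 of 38 were higher and 1 lower, where 30.8% and 9.93% of all genes were. In that alternative FANCB stood at 1.66, PMS2 at 1.03 and FANCG at 0.90. That scaling also raised all values, so the 1 added before taking log2 weighed less. With the main scaling and 0.1 added instead of 1, FANCB stood at 1.34, PMS2 at 0.76 and FANCG at 0.64. How much of the change came from omitting structural RNAs was not tested. The count of higher genes fell to 9 of 38 without Flag-IP 1. The count of lower genes fell to 1 without either input library and to 2 without either Flag-IP library.

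**Figure D2:**
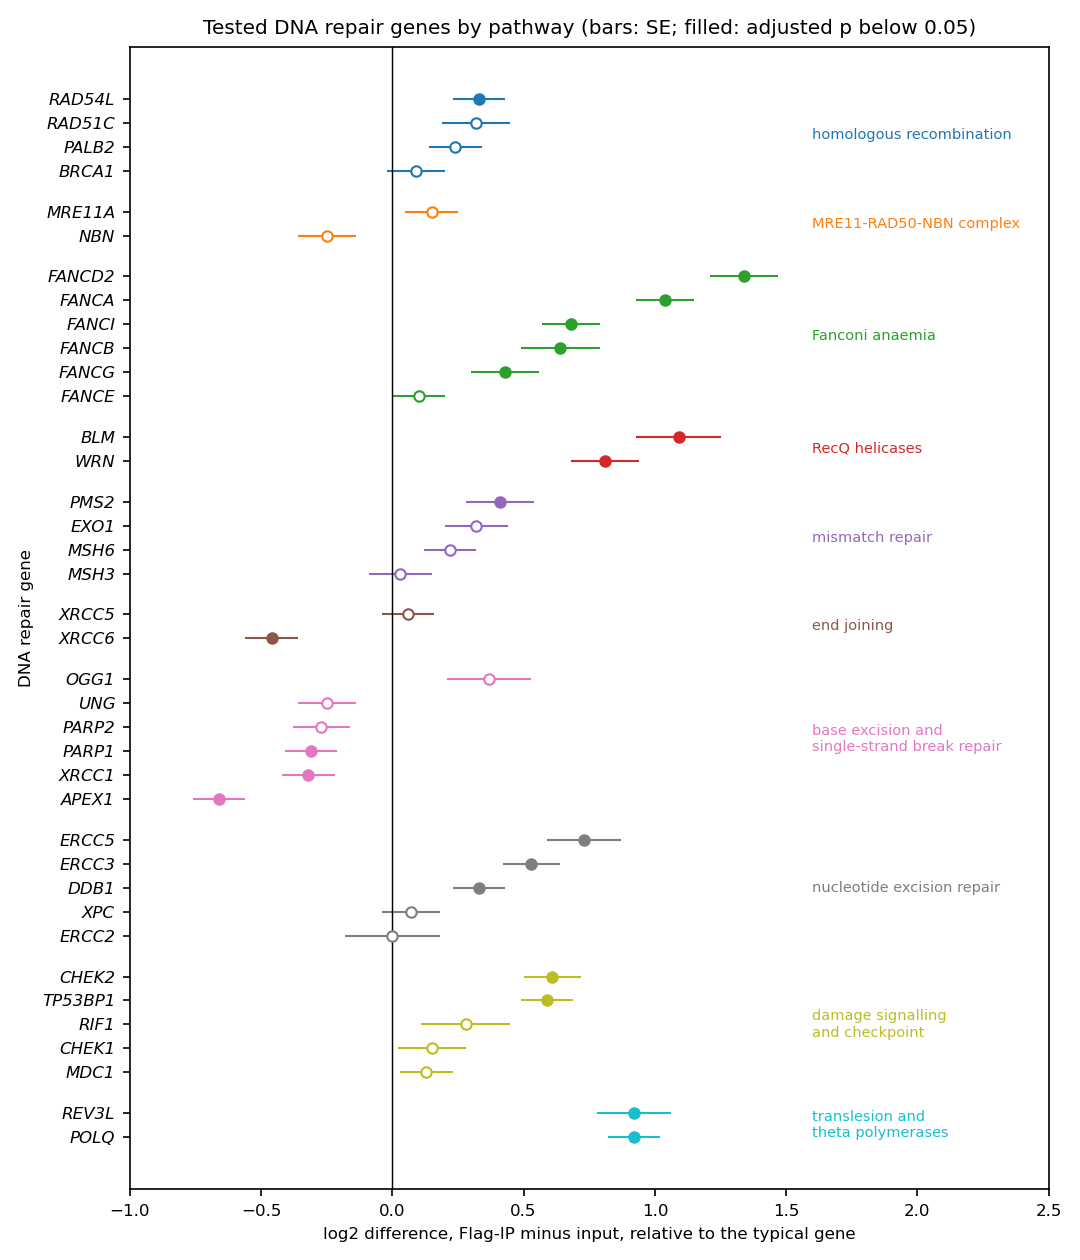
Log2 difference of Flag-IP minus input relative to the typical gene (x axis) for the 38 tested repair genes, grouped and coloured by pathway. Points are limma estimates from 2 against 2 libraries, bars 1 SE either side, and filled points pass an adjusted p below 0.05. FANCD2 is farthest to the right at 1.34 and APEX1 farthest to the left at -0.66.

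The Fanconi anaemia pathway held the gene with the largest increase, FANCD2. Of its 9 genes 6 were tested. On the relative scale 5 of these were higher and none lower, where 22.3% and 18.6% of all tested genes were. FANCA, FANCB and FANCG, 3 of these 5, had input means of 0.55, 0.26 and 0.91 TPM and entered the test through their level in Flag-IP, so the count is a description. FANCD2, which is monoubiquitinated when a crosslink stalls replication (chromosome 3, 10026414 to 10101930, plus strand, GRCh38), was at 1.20 and 1.31 TPM in input 1 and 3 and at 12.4 and 8.07 TPM in Flag-IP 1 and 3. Both Flag-IP libraries were far above both inputs, although they differed from each other by more than the inputs did. Its difference of 1.34 ± 0.13 (log2 ± SE throughout, limma adjusted p = 0.0013) was the largest of all tested repair genes in the list. FANCI, its partner in the clamp that is loaded on DNA, was at 3.19 and 3.16 TPM in input and at 14.8 and 11.8 TPM in Flag-IP. That gave 0.68 ± 0.11 (limma adjusted p = 0.0061). The difference between the 2 partners was not tested.

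The subunits of the core complex, the ubiquitin ligase that modifies FANCD2 and FANCI, were spread over a wide range. FANCA (chromosome 16, 89737549 to 89816657, minus strand) was at 0.48 and 0.62 TPM in input and at 4.48 and 4.23 TPM in Flag-IP, a difference of 1.04 ± 0.11 (limma adjusted p = 0.0016). The Flag-IP libraries lay close together for this gene. FANCB, encoded on the X chromosome, was at 0.24 and 0.28 TPM in input and at 2.64 and 1.23 TPM in Flag-IP (0.64 ± 0.15, limma adjusted p = 0.020). FANCG, a scaffold subunit, was at 0.96 and 0.86 TPM and at 3.57 and 3.43 TPM (0.43 ± 0.13, limma adjusted p = 0.037). FANCE, which binds FANCD2, stood at 0.67 and 0.73 TPM and at 2.0 and 1.84 TPM, and its difference of 0.10 ± 0.10 did not pass. The calls of FANCD2, FANCI and FANCA were kept in every alternative that tested them. The value of FANCB moved to 0.38 without Flag-IP 1. Its call was lost without input 3 (0.68, limma adjusted p = 0.053), with quantile scaling (0.34, adjusted p = 0.18) and without a filter (0.62, adjusted p = 0.079). The call of FANCG was lost without input 3 (0.34), Flag-IP 1 (0.49) or Flag-IP 3 (0.34), with the replicate block (0.43, limma adjusted p = 0.062), with quantile scaling (0.34) and without a filter (0.41).

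A further 3 genes of this pathway lay under 1 TPM on average. FANCM, the translocase that brings the complex to DNA, was at 0.20 and 0.29 TPM in input and at 1.71 and 0.85 TPM in Flag-IP. BRIP1, a helicase that binds BRCA1, was at 0.26 and 0.25 TPM and at 1.62 and 0.95 TPM. FANCC, another core subunit, was at 0.23 TPM in both inputs and at 0.53 and 0.49 TPM in Flag-IP. In the fit without a filter their differences were 0.36, 0.35 and -0.04, and none passed (limma adjusted p = 0.15, 0.10 and 0.72).

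Both RecQ helicases, which unwind recombination intermediates and stalled forks, were higher, where 22.3% of all tested genes were. BLM (chromosome 15, 90717327 to 90816165, plus strand), mutated in Bloom syndrome, was at 1.72 and 1.69 TPM in input and at 13.6 and 7.97 TPM in Flag-IP, a difference of 1.09 ± 0.16 (limma adjusted p = 0.0044). WRN, mutated in Werner syndrome and also an exonuclease, was at 0.54 and 0.38 TPM and at 3.62 and 2.66 TPM (0.81 ± 0.13, limma adjusted p = 0.0059). The same held for the pair of large polymerases. REV3L, the catalytic subunit of translesion polymerase zeta (chromosome 6, 111299028 to 111483715, minus strand), was at 0.42 and 0.38 TPM and at 4.17 and 2.45 TPM. POLQ, polymerase theta of microhomology-mediated end joining (chromosome 3, 121431427 to 121546641, minus strand), was at 0.55 and 0.54 TPM and at 4.49 and 3.31 TPM. Their differences were 0.92 ± 0.14 and 0.92 ± 0.10 (limma adjusted p = 0.0044 and 0.0020). These 4 calls were kept in every alternative that tested them. WRN, REV3L and POLQ had input means of 0.46, 0.40 and 0.545 TPM and entered the test through their level in Flag-IP. The filter on the input mean and the filter at 5 TPM left those genes out.

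Homologous recombination factors in the list had 1 call. Of 6 genes 4 were tested, with differences from 0.09 to 0.33, and RAD54L was higher, where 22.3% of all tested genes were. RAD54L, a motor protein that moves along double-stranded DNA during strand exchange, was at 1.00 and 1.17 TPM in input and at 4.18 and 3.24 TPM in Flag-IP (0.33 ± 0.10, limma adjusted p = 0.038). Its call was lost without any 1 of the 4 libraries (0.30 to 0.35), with the length trend removed, with quantile scaling, without a filter and with the replicate block (0.33, limma adjusted p = 0.064). RAD51C, which acts in strand exchange, was at 0.76 and 0.59 TPM and at 2.91 and 2.02 TPM (0.32 ± 0.13, limma adjusted p = 0.099). PALB2, which links BRCA1 to BRCA2, was at 0.68 and 0.86 TPM and at 2.80 and 2.14 TPM (0.24 ± 0.10, limma adjusted p = 0.099). Both passed when the scaling omitted structural RNAs (RAD51C at 0.80 and PALB2 at 0.64, limma adjusted p = 0.040 and 0.031), and RAD51C also without input 1 (0.51, limma adjusted p = 0.042). BRCA1, the ubiquitin ligase that promotes resection of broken ends, was at 1.09 and 1.00 TPM and at 3.14 and 2.48 TPM. Its difference of 0.09 ± 0.11 did not pass, and its scaled libraries overlapped between the groups.

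BRCA2 and BARD1 were too scarce to be tested. BRCA2, a mediator of strand exchange, was at 0.38 and 0.36 TPM in input and at 1.95 and 0.90 TPM in Flag-IP, and BARD1, the partner of BRCA1, at 0.37 and 0.49 TPM and at 1.52 and 1.32 TPM. Without a filter they were at 0.23 and 0.19 and did not pass. The MRE11-RAD50-NBN complex, which senses and trims broken ends, showed no call. MRE11A, its nuclease, was at 0.70 TPM in both inputs and at 2.27 and 1.84 TPM in Flag-IP (0.15 ± 0.10). NBN, which binds the kinase ATM, was at 1.11 and 1.45 TPM and at 2.81 and 1.91 TPM (-0.25 ± 0.11, limma adjusted p = 0.12). It passed only with the length trend removed (-0.47, limma adjusted p = 0.022). RAD50, at 0.54 and 0.68 TPM and at 1.43 and 0.82 TPM, was not tested.

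In mismatch repair 1 of 4 tested genes was higher, close to the 22.3% of all tested genes. That gene, PMS2, had an input mean of 0.49 TPM and entered the test through its level in Flag-IP. PMS2, an endonuclease that nicks the strand to be corrected, was at 0.57 and 0.41 TPM in input and at 2.27 and 1.90 TPM in Flag-IP (0.41 ± 0.13, limma adjusted p = 0.045). Its call was lost without input 3 (0.28), Flag-IP 1 (0.39) or Flag-IP 3 (0.38), with the replicate block (0.41, limma adjusted p = 0.060), with quantile scaling (0.23), without a filter and with a pseudocount of 0.1. PMS2 has many near-identical pseudogenes, so its level is uncertain. One of them, PMS2CL, was at 0.74 and 1.03 TPM in input and at 5.33 and 3.31 TPM in Flag-IP. Another, PMS2P7, was at 1.32 and 1.3 TPM in input and at 17.8 and 13.5 TPM in Flag-IP. EXO1, an exonuclease, was at 0.68 and 0.79 TPM and at 3.31 and 2.02 TPM (0.32 ± 0.12, limma adjusted p = 0.076), and passed when the scaling omitted structural RNAs (0.77, limma adjusted p = 0.030). MSH6, which recognises single mispairs, was the most abundant of the 4, at 2.40 and 2.72 TPM in input and at 8.16 and 6.70 TPM in Flag-IP (0.22 ± 0.10, limma adjusted p = 0.12). It passed when the scaling omitted structural RNAs (0.51, limma adjusted p = 0.020) and when genes were chosen on their input mean (0.38, limma adjusted p = 0.026). Removing the length trend brought it to -0.11. MSH3, its counterpart for longer loops, was at 0.49 and 0.80 TPM and at 1.87 and 1.33 TPM, at the level of the typical gene (0.03 ± 0.12).

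Base excision and single-strand break repair was the pathway with the most lower genes. Of 6 tested genes 3 were lower relative to the typical gene and none higher, with a median of -0.29. Of all tested genes 18.6% were lower and 22.3% higher. Of those with transcripts under 3 kb, the class of APEX1 and XRCC1, 31.0% were lower. APEX1, the endonuclease that cuts abasic sites (chromosome 14, 20455191 to 20457772, plus strand), was at 8.52 and 9.24 TPM in input and at 14.5 and 11.5 TPM in Flag-IP. Scaled to the typical gene, the same libraries stood at 14.2 and 13.2 against 8.38 and 8.20, so that both Flag-IP libraries were below both inputs. The difference of -0.66 ± 0.10 (limma adjusted p = 0.0048) was kept in all 14 alternatives, while as deposited APEX1 was 0.49 higher (limma adjusted p = 0.026), a call lost without input 1, input 3 or Flag-IP 1 (0.44, 0.54 and 0.34), without a filter (adjusted p = 0.063) and with the replicate block (adjusted p = 0.16).

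PARP1, which senses strand breaks and builds poly(ADP-ribose), and XRCC1, the scaffold it recruits, passed narrowly. PARP1 was at 9.39 and 11.3 TPM in input and at 21.9 and 17.8 TPM in Flag-IP, and scaled at 15.6 and 16.2 against 12.7 in both (-0.31 ± 0.10, limma adjusted p = 0.049). XRCC1 was at 2.41 and 2.87 TPM and at 5.24 and 4.31 TPM (-0.32 ± 0.10, limma adjusted p = 0.043). Both calls were lost without any 1 of the 4 libraries, with the replicate block (limma adjusted p = 0.094 for PARP1 and 0.073 for XRCC1), without a filter, with genes chosen on their input mean, and when the scaling omitted structural RNAs (PARP1 at -0.09 and XRCC1 at -0.16). With quantile scaling PARP1 was at -0.05 (limma adjusted p = 0.74). PARP2, a second poly(ADP-ribose) polymerase, was at 1.43 and 1.93 TPM and at 3.49 and 2.64 TPM (-0.27 ± 0.11, limma adjusted p = 0.091), and UNG, which removes uracil, at 0.82 and 0.77 TPM and at 1.36 and 1.34 TPM (-0.25 ± 0.11, limma adjusted p = 0.12). These 2 passed with quantile scaling (-0.34 and -0.42, limma adjusted p = 0.048 and 0.033). OGG1, the glycosylase for oxidised guanine, had the opposite sign and did not pass, at 0.84 and 0.74 TPM in input and at 2.65 and 3.16 TPM in Flag-IP (0.37 ± 0.16, limma adjusted p = 0.10). It passed when the scaling omitted structural RNAs (0.83, limma adjusted p = 0.030). OGG1 and ERCC2 were the 2 genes of the 48 with more TPM in Flag-IP 3 than in Flag-IP 1.

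The Ku heterodimer, which caps broken ends for end joining, held both tested genes among the 4 listed for that pathway. XRCC6, the Ku70 gene (chromosome 22, 41621119 to 41664048, plus strand), was at 10.9 and 13.1 TPM in input and at 22.9 and 18.2 TPM in Flag-IP, and scaled at 18.2 and 18.7 against 13.3 and 13.0. Its difference was -0.46 ± 0.10 (limma adjusted p = 0.014). The call was lost without input 1 (-0.49) or input 3 (-0.44), with quantile scaling (-0.19), with a scaling that omitted structural RNAs (-0.25), with genes chosen on their input mean (-0.27) and with a filter at 5 TPM (-0.26). XRCC5, the Ku80 gene, was at 4.48 and 4.96 TPM and at 13.7 and 10.2 TPM, and its scaled libraries overlapped (0.06 ± 0.10, limma adjusted p = 0.69). Whether the 2 Ku genes differ was not tested. XRCC4, a scaffold of the ligation step, was at 0.18 and 0.14 TPM in input and at 0.77 and 0.43 TPM in Flag-IP, and LIG4, the ligase, reached 0.45 and 0.24 TPM in Flag-IP.

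Nucleotide excision repair had 3 higher and no lower genes among 5 tested, where 22.3% and 18.6% of all tested genes were. ERCC5, the XPG nuclease that cuts on one side of the lesion, was at 1.89 and 2.89 TPM in input and at 12.2 and 8.83 TPM in Flag-IP (0.73 ± 0.14, limma adjusted p = 0.0092). ERCC3, the XPB translocase of TFIIH, was at 1.32 and 1.44 TPM and at 6.47 and 4.61 TPM (0.53 ± 0.11, limma adjusted p = 0.012). Both calls were lost without Flag-IP 1 (0.65 and 0.44, limma adjusted p = 0.054 and 0.071) and kept otherwise. ERCC5 shares exons with the readthrough gene BIVM-ERCC5, which was listed at 0 in all 4 libraries, so the assignment of their reads is uncertain. DDB1, an adaptor of the ubiquitin ligase that marks UV lesions, was at 6.85 and 8.07 TPM and at 24.7 and 21.1 TPM (0.33 ± 0.10, limma adjusted p = 0.042). Its call was lost without any 1 of the 4 libraries (0.30 to 0.37), with the length trend removed (0.16), with the replicate block (0.33, limma adjusted p = 0.080) and without a filter. ERCC2, the XPD helicase of the same TFIIH complex as ERCC3, was at 1.49 and 1.81 TPM in input and at 3.38 and 4.56 TPM in Flag-IP, with a difference of 0.00 ± 0.18. XPC, which finds distorted DNA, was at 1.44 and 1.94 TPM and at 4.84 and 3.79 TPM (0.07 ± 0.11).

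ERCC6 and XPA were under the filter. ERCC6, the CSB factor of transcription-coupled repair, was at 0.30 and 0.42 TPM in input and at 1.68 and 1.3 TPM in Flag-IP. XPA, which verifies the lesion, was at 0.71 and 0.35 TPM and at 0.94 and 0.45 TPM, and its groups overlapped as deposited and after scaling. Without a filter they were at 0.31 and -0.36, and neither passed (limma adjusted p = 0.10 and 0.34).

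Among damage signalling genes 2 of 5 were higher, where 22.3% of all tested genes were. CHEK2, the checkpoint kinase downstream of ATM, was at 0.78 and 0.97 TPM in input and at 4.89 and 3.29 TPM in Flag-IP (0.61 ± 0.11, limma adjusted p = 0.0087), a call lost without Flag-IP 1 (0.49, limma adjusted p = 0.052). CHEK2 has pseudogene copies, so its level is uncertain. With an input mean of 0.875 TPM, it entered the test through its level in Flag-IP. TP53BP1, which holds ends back from resection, was at 1.35 and 1.5 TPM and at 6.48 and 5.41 TPM (0.59 ± 0.10, limma adjusted p = 0.0064). Its call was lost with the length trend removed (0.13, limma adjusted p = 0.37). CHEK1, the kinase downstream of ATR, was at 0.48 and 0.76 TPM and at 2.32 and 1.36 TPM (0.15 ± 0.13). RIF1, an effector of TP53BP1, was at 1.27 and 1.71 TPM and at 6.40 and 3.32 TPM (0.28 ± 0.17), and MDC1, which reads phosphorylated histone H2AX, at 2.17 and 2.27 TPM and at 6.79 and 5.24 TPM (0.13 ± 0.10). These 3 did not pass (limma adjusted p = 0.40, 0.24 and 0.36), and removing the length trend brought RIF1 to -0.36 and MDC1 to -0.21.

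Longer transcripts had larger differences across the genes, a property that was not used to choose them. Over the 38 tested genes Spearman's rho between the relative difference and the longest annotated transcript was 0.46, and with the length of the coding sequence 0.52. Over 6116 tested protein-coding genes rho with transcript length was 0.47. With the length of the 3′ untranslated region it was -0.09 over the repair genes. These are correlations across genes of the same 4 libraries, which are not independent replicates. The difference also fell with the input mean TPM (rho -0.44 over the 38 genes and -0.54 over all protein-coding genes), a value that itself enters the difference. The 16 higher genes had a median transcript of 4943 bases and a median input mean of 0.997 TPM, the 4 lower genes 2755 bases and 9.62 TPM.

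Length did not order the genes fully. Among transcripts under 3 kb, where 8.35% of 2744 tested genes were higher and 31.0% lower, 3 of 10 repair genes were higher (CHEK2, FANCG and PMS2) and 3 lower (APEX1, XRCC6 and XRCC1). From 3 to 6 kb, where 26.8% of 2521 genes were higher and 10.3% lower, 10 of 20 were higher and PARP1 was lower. Over 6 kb, where 46.0% of 1136 genes were higher and 6.6% lower, 3 of 8 were higher (TP53BP1, REV3L and POLQ) and none lower. RIF1, the longest at 15003 bases, did not pass. With the length trend over all genes removed, 13 of the 38 were higher and 4 lower, where 16.8% and 19.6% of 6401 genes were, and their median was 0.14 against -0.05 for all genes.

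**Figure D3:**
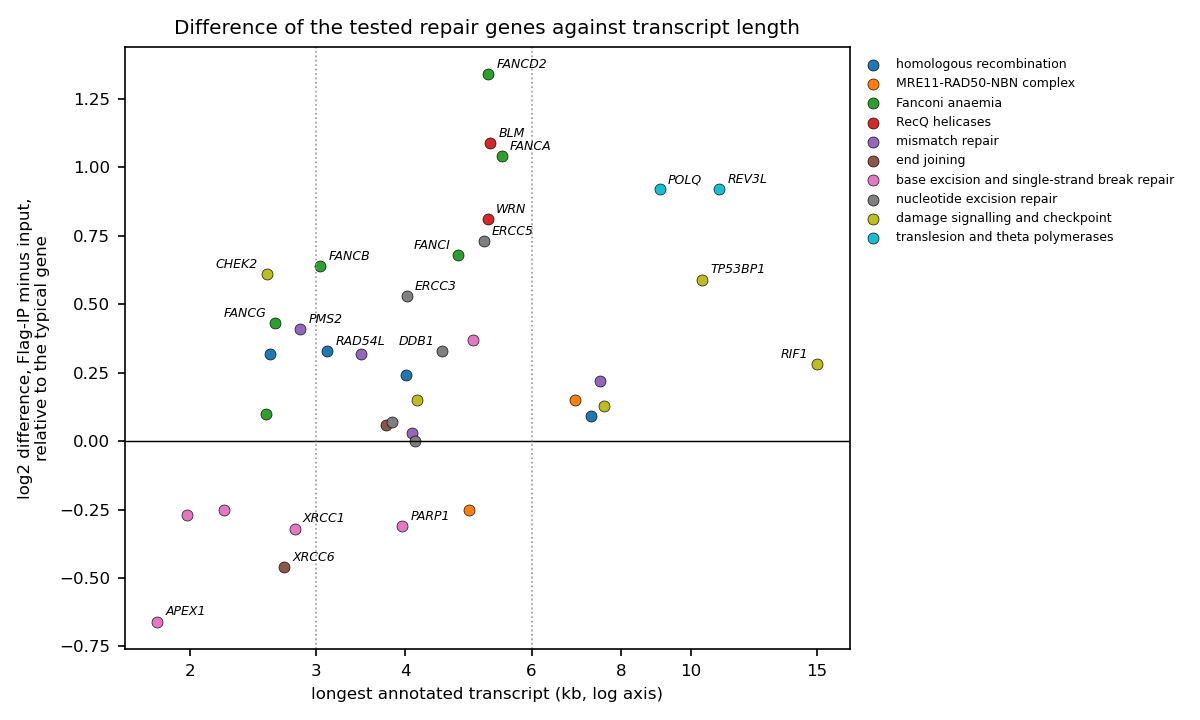
Relative log2 difference of the 38 tested repair genes (y axis) against the longest annotated transcript in kb (log axis), coloured by pathway, with dotted lines at 3 and 6 kb. Names mark genes that pass the test and transcripts over 9 kb. FANCD2, BLM and FANCA are highest at a little over 5 kb, above the longer POLQ, REV3L and RIF1, and APEX1 lies lowest among the shortest.

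The motif GGACT, the DNA spelling of the m6A consensus GGACU, was counted on the sense strand of the longest coding transcript of each gene, overlapping matches included. It was present in 37 of the 38 tested repair genes, all but UNG, and in 91.6% of 6112 tested protein-coding genes. The median was 0.865 per kb for the repair genes and 0.947 for all. Higher, lower and other repair genes had medians of 0.976, 1.05 and 0.697 per kb, and rho between motif density and relative difference was 0.12 over the repair genes and 0.03 over all. To show the motif in transcripts from both ends of the range, a 55-base stretch of coding sequence around the first GGACT with 25 coding bases of the same exon on each side is given for the 2 highest and 2 lowest genes that have one, from GENCODE 29 transcripts on GRCh38, 5′ to 3′ on the coding strand, with the motif in capitals.
FANCD2, chr3:10064735-10064789, plus strand, difference 1.34: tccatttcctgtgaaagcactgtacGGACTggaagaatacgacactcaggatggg
BLM, chr15:90749504-90749558, plus strand, difference 1.09: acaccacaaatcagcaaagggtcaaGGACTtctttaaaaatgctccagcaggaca
XRCC1, chr19:43551580-43551634, minus strand, difference -0.32: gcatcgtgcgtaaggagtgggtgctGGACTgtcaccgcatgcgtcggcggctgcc
APEX1, chr14:20456733-20456787, plus strand, difference -0.66: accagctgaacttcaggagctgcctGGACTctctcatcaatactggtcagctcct
A match describes these letters alone. The files hold no methylation or binding site, so none can be placed in these stretches.

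The other genes of the same pathways were read from the same fit. Of 120 further repair genes 119 were in the table and 83 were tested. Relative to the typical gene 27 were higher and 10 lower, with a median of 0.19, where 22.3% of all genes were higher and 18.6% lower. The filter let 22 of the 27 in through their level in Flag-IP, with input means under 1 TPM. With genes chosen on their input mean, 6 of 42 were higher and 5 lower, where 18.3% and 15.1% of all genes were, so the share of higher genes was then below that of all genes.

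In damage signalling 9 of 12 tested genes were higher and 1 lower, where 22.3% and 18.6% of all tested genes were. Of these 9, 7 had input means under 1 TPM, ATM among them, so the count is a description. ATM, the kinase that responds to double-strand breaks, was at 0.90 and 0.98 TPM in input and at 10.5 and 6.01 TPM in Flag-IP (1.32 ± 0.16, limma adjusted p = 0.0022). H2AFX, the histone variant that ATM phosphorylates, was lower, at 3.70 and 5.1 TPM and at 5.43 and 6.19 TPM (-0.70 ± 0.16, limma adjusted p = 0.017). That call was lost without input 3 (-0.61) or Flag-IP 1 (-0.49), without a filter and with the length trend removed (-0.43, limma adjusted p = 0.081).

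In the Fanconi anaemia pathway 2 of 5 further genes were higher, where 22.3% of all tested genes were. FAN1, a nuclease that acts with FANCD2, was at 0.33 and 0.32 TPM in input and at 5.24 and 4.05 TPM in Flag-IP, and its 1.40 ± 0.10 (limma adjusted p = 0.00063) was the largest difference of the further genes. Led by RECQL4 (1.16 ± 0.16), 2 of 3 RecQ helicases were higher, where 22.3% of all tested genes were. Among recombination genes 8 of 22 were higher and 1 lower, where 22.3% and 18.6% of all tested genes were. RAD51B, which also acts in strand exchange, stood at 1.13 ± 0.17, and BABAM1, a subunit of a BRCA1-associated deubiquitinase, at -0.80 ± 0.14. Of the translesion genes 2 of 6 were higher, where 22.3% of all tested genes were, and SHPRH, a ubiquitin ligase for PCNA, was highest (1.01 ± 0.10). PMS1 was the 1 higher gene of 3 in mismatch repair (0.64 ± 0.11), beside 22.3% of all tested genes. In recombination the higher calls of DNA2, GEN1, MUS81, SLX4, HELQ and BRE were lost in at least 1 alternative. So were those of FAAP100 in the Fanconi anaemia pathway and RECQL5 among RecQ helicases. All other higher calls of these pathways were kept in every alternative that tested them. Except for RECQL4, all higher genes of these pathways had input means under 1 TPM. They entered the test through their level in Flag-IP, so these counts are descriptions.

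Base excision and nucleotide excision repair genes outside the list held 7 of the 10 lower calls. In neither pathway was the share of lower genes far above the 18.6% of all tested genes. Of 16 base excision and single-strand break genes none was higher at this threshold in limma and 4 were lower, beside 18.6% of all genes. The lower calls of LIG1 and FEN1, named after their values were seen, were lost without a filter, with genes chosen on their input mean, and without input 3, Flag-IP 1 or Flag-IP 3. MPG, the glycosylase for alkylated bases, was at 12.9 and 16.3 TPM in input and at 18.3 and 16.9 TPM in Flag-IP (-0.93 ± 0.11, limma adjusted p = 0.0025). Of 11 nucleotide excision genes 1 was higher and 3 lower, and 2 of these 3 calls were lost without a filter, with genes chosen on their input mean, and without input 1, input 3 or Flag-IP 1. MMS19, an iron-sulfur assembly factor, was at 0.38 ± 0.11, a call lost without any 1 of the 4 libraries. In end joining 2 of 4 were higher and 1 lower, where 22.3% and 18.6% of all tested genes were. PRKDC, a higher gene named after its value was seen, stood at 0.46 ± 0.11 (limma adjusted p = 0.022). Its call was lost with the length trend removed (-0.13), without a filter (0.42) and without input 1, input 3 or Flag-IP 1. POLM, a polymerase of that pathway, stood at 0.47 ± 0.11 and its relative POLL at -0.35 ± 0.10. The input mean of POLM was 0.505 TPM, so it entered the test through its level in Flag-IP. The call of POLM was lost without input 1 or Flag-IP 3, without a filter and with quantile scaling, and that of POLL without any 1 library, without a filter and with the replicate block. The 1 tested gene of direct reversal did not pass.

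**Figure D4:**
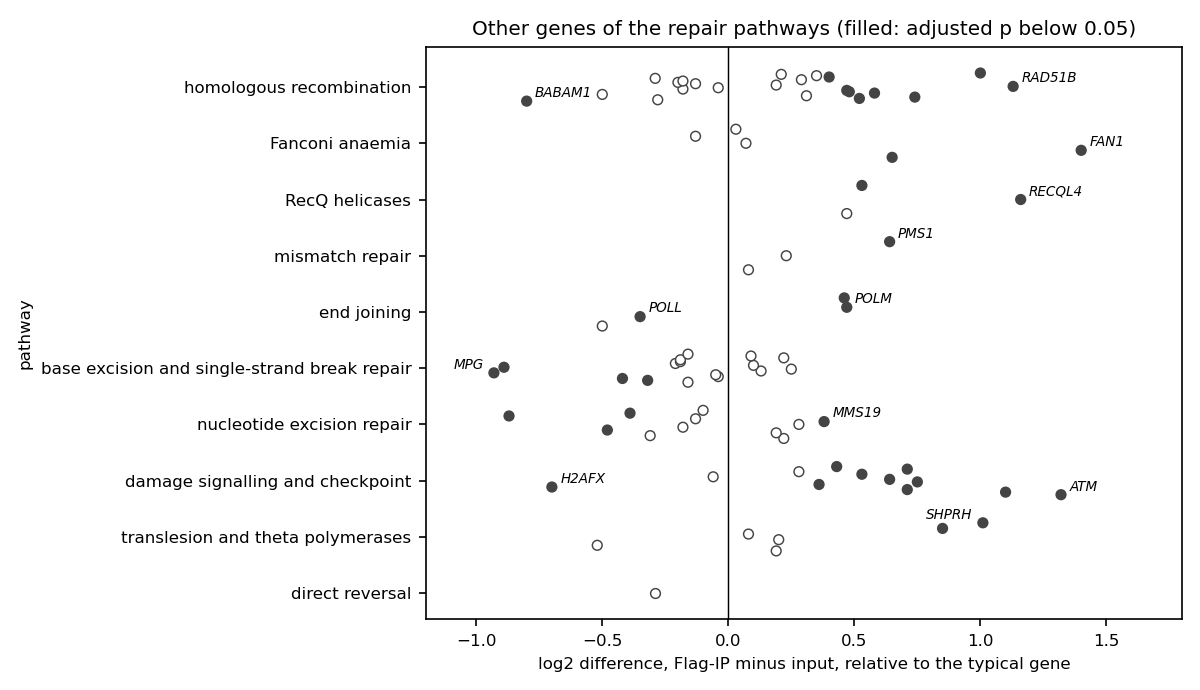
Relative log2 difference of the 83 tested repair genes outside the list, 1 point per gene, by pathway. Filled points pass an adjusted p below 0.05, and names mark the gene with the largest passed difference in each direction per pathway, except the lower nucleotide excision genes, which are not named. FAN1 and ATM lie farthest right at 1.40 and 1.32, and MPG farthest left at -0.93.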

How the data were processed

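The authors deposited TPM (an abundance corrected for transcript length), 1 value per symbol and library, rounded to 2 decimals. Per the submitters' processing notes, STAR, RSEM and GRCh38 were used. For versions and annotation, the sources used here give nothing. The 6487 genes averaging 1 TPM or more entered a fit of log2(TPM + 1) with limma 3.58.1 in R 4.3.3 (eBayes with a mean-variance trend), Flag-IP against input, two-sided, Benjamini-Hochberg over all genes, as deposited and after median-ratio scaling. Because 1 is added, differences of low genes are understated. With 2 residual degrees of freedom the prior ones were 4.02 on the relative scale and infinite as deposited, where p-values may be too small. Gene places, transcript lengths and sequences came from GENCODE 29: 23819 symbols matched, 533 matched through an older symbol or synonym and 2478 did not. Members and lists were chosen with earlier results of these data known. Every member at 1 TPM or more is named with its 4 values, members under it with theirs, and of the further repair genes the largest passed difference per pathway and direction, 1 of which is not reported here. Several members share exons with neighbours on the opposite strand, and whether counting used strand is not given. PMS2, CHEK2, FANCD2, XRCC6, PARP1, UNG and MRE11A have annotated pseudogenes. RAD17 is not analysed here. Simulated data were used to check the fit.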

Additional observations from a re-analysis of the deposited data

How the results depend on the processing

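Of the member calls relative to the typical gene, 7 of 16 higher calls (FANCA, FANCD2, FANCI, BLM, WRN, REV3L and POLQ) were kept in every alternative that tested them. So was 1 of 4 lower calls (APEX1), and as deposited 31 of 38 were kept. FANCA, WRN, REV3L and POLQ, with input means under 1 TPM, were not tested with the filter on the input mean or at 5 TPM. The higher members numbered 9 with the filter on the input mean and 5 with a filter at 5 TPM, and 9 to 15 with 1 library left out. The lower members numbered 2 without a filter, 1 with the input filter, 1 at 5 TPM, 1 when the scaling omitted structural RNAs, and 1 to 2 with 1 library left out. The higher members as deposited numbered 21 with the input filter and 9 at 5 TPM, where fewer genes were tested. Further repair genes numbered 6 and 2 higher with the input filter and at 5 TPM. Lower ones numbered 4 without a filter, 5 with the input filter, 4 at 5 TPM, 5 when the scaling omitted structural RNAs, and 4 to 7 with 1 library left out. The replicate number as a block gave 12 higher and 2 lower members relative to the typical gene and 34 higher as deposited. Same-numbered libraries deviated from their group means in opposite directions (correlation -0.187 over tested genes), which does not settle whether they share a culture. They were treated as unpaired, and the crossed pairing, chosen after seeing the data, gave 16 higher and 2 lower members. The scaling without structural RNAs put the median of all genes at 0.22. It also raised all values, so the added 1 weighed less than in the main fit.

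Among the members, the sign changed only for genes that had not passed. This did not hold for all further repair genes. PRKDC had passed as higher at 0.46, but taking out the length trend left it at -0.13. The values that follow are those of members. With the length trend removed BRCA1 was at -0.23, MRE11A at -0.16, MSH3 at -0.09, MSH6 at -0.11, XRCC5 at -0.03, ERCC2 at -0.12, XPC at -0.02, MDC1 at -0.21 and RIF1 at -0.36. With quantile scaling FANCE was at -0.03, MSH3 at -0.14, ERCC2 at -0.06 and CHEK1 at -0.01. ERCC2 was at -0.02 without a filter and at -0.00 with a pseudocount of 0.1. With 1 library left out BRCA1 ranged from -0.01 to 0.21, MSH3 from -0.10 to 0.16, ERCC2 from -0.25 to 0.26 and XPC from -0.01 to 0.15. The cause was not tested. The read depth is unknown, so how far it limits the genes under 1 TPM cannot be given.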
